A study of Homo sapiens with 8 samples.

Results

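Ferritin and iron handling genes were examined in RNA-seq of J82, an established human line from a bladder cancer. The set was chosen by name, by a rule that uses no measured value, but with earlier results of these data known. It holds the ferritin subunits FTH1 and FTL, the uptake genes TFRC, SLC11A2 and STEAP3, and the exporter SLC40A1. It also holds the regulators IREB2 and ACO1, the ferritin receptor NCOA4, and BEST1, whose exons lie across those of FTH1 on the other strand. Of these 10 genes, 9 could be matched by gene identifier among the 57820 genes of the count table. NCOA4 was not matched by its current identifier and is not analysed here.

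The 4 SP and 4 NSP libraries, with replicate numbers 1 to 4 in each group, came from J82 cells grown in DMEM with serum and sorted by dye content. SP (side population) cells keep little of the DNA dye Hoechst, and NSP cells are those outside that gate. Both groups come from a single line, and the labels name no drug or genetic change for either. The labels do not say whether the replicates were separate cultures or sorts, so the p-values measure the spread between these libraries, which may be technical. The values are raw counts per gene, of which a library held 1431823 to 2073526 in total, and they are given as CPM, the count per 1e6 of edgeR's TMM-scaled library size. Of the fixed epithelial and urothelial markers, KRT8 (4166 to 7986 counts per library), KRT18 and KRT7 were well counted. KRT19 had 11 to 107 counts per library and UPK2 had 9 to 49, while GATA3, UPK1B and CDH1 had at most 8, 7 and 4. KRT5, UPK1A and EPCAM had at most 1 count in any library and UPK3A had 0. The blood markers PTPRC, HBB and HBA2 had 0 counts, HBA1, VWF and CDH5 had at most 1 per library, and CD68 had 8 to 20. KRT7 (log2 fold change -1.35, adjusted p = 0.00342) was the 1 called lower of 5 tested epithelial markers in SP cells, and FN1 (-1.25, adjusted p = 0.000863, edgeR) the 1 called lower of 4 mesenchymal markers. Of all tested genes, 2.03% were called lower. VIM (-0.76, adjusted p = 0.0784), ZEB1 (-0.46, adjusted p = 0.598) and CDH2 (-0.03, adjusted p = 0.97) were also below 0 but not called. Of the 5 tested epithelial markers, 1 was above 0, UPK2 (0.22, adjusted p = 0.82, edgeR). The part of these markers in the results on iron genes was not tested.

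Cells hold iron inside ferritin, a shell built from heavy subunits (FTH1), which oxidize iron, and light subunits (FTL), which help to form the iron core. Iron enters with transferrin through the transferrin receptor (TFRC), is reduced in the endosome by STEAP3 and passes to the cytosol through the transporter SLC11A2, and it leaves the cell through ferroportin (SLC40A1). The iron regulatory proteins ACO1 and IREB2 bind a hairpin in several of these mRNAs, the iron-responsive element, when iron is low. Binding in the 5′ UTR blocks translation, as in ferritin, whereas binding in the 3′ UTR protects the TFRC mRNA from decay, so mRNA counts follow only part of this control.

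The iron-responsive elements of the members are shown because they sort the genes by the way in which iron acts on their mRNA. Exons were searched on the gene's strand in GRCh37 for an unpaired C, 5 bases, the loop CAGTGN and 5 bases that pair with the first 5, G with T allowed. A match was present in 2.08% of 20175 protein-coding genes, and in 0.889% of those within 20% of the exon length of FTH1, 0.387% for FTL, 1.67% for SLC40A1 and 6.99% for TFRC. The capitals mark the 6 bases of the loop.
FTH1, 5′ UTR, chr11:61735047-61735076, minus strand: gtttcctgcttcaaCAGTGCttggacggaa
FTL, 5′ UTR, chr19:49468590-49468619, plus strand: gtctcttgcttcaaCAGTGTttggacggaa
SLC40A1, 5′ UTR, chr2:190445388-190445417, minus strand: tccaacttcagctaCAGTGTtagctaagtt
TFRC, 3′ UTR, chr3:195777851-195777880, minus strand: ataattatcggaagCAGTGCcttccataat
TFRC, 3′ UTR, chr3:195777447-195777476, minus strand: cacattatcgggagCAGTGTcttccataat
TFRC, 3′ UTR, chr3:195777382-195777411, minus strand: gtctgtatcggagaCAGTGAtctccatatg
TFRC, 3′ UTR, chr3:195777335-195777364, minus strand: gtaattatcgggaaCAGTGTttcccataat
The FTH1 and FTL elements were alike around the loop, and the 4 TFRC elements lay together in the 3′ UTR. No match was found in the exons of SLC11A2, IREB2, ACO1, STEAP3 and BEST1 with these letters. The search finds this form alone, and a hairpin with an unpaired base in that stem would not match. A gene without a match, such as SLC11A2, may therefore still hold an element, and a gene with matches may hold more.

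Most counts of the 9 matched genes stood under the name of BEST1 and not under the ferritin genes. BEST1, a chloride channel of the retinal pigment epithelium (ENSG00000167995.11; chromosome 11 of GRCh37, 61717535 to 61732987, plus strand), had 296022 counts over the 8 libraries, and FTH1 (ENSG00000167996.11; 61727190 to 61735106, minus strand) had 27808. BEST1 took 1.27% to 2.95% of all SP counts in a library, and 1.42% to 3.30% for NSP. Of the counts of both genes together, 91.4% fell on BEST1, with 88.6% to 92.6% in single libraries. Per kb of exon the share of BEST1 was 71.1%, with 64.3% to 74.2% in single libraries.

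The overlap of the genes was large on the side of FTH1. Exons of BEST1 crossed 1267 bp of the 2004 bp of FTH1 exon sequence, 63.2%, but this was 14.6% of the 8688 bp of BEST1 exons. In the main FTH1 transcript, exons 2, 3 and 4 (147, 126 and 607 bp) were crossed over their whole length by the last exon of BEST1, which runs from 61729727 to 61732987. Exon 1 of FTH1 (323 bp), which carries the iron-responsive element printed above, was not crossed. The table gives 1 number per gene, so it does not show where in BEST1 the counts lie, and the strand setting of the counting is not given in the sources used here. How many of the BEST1 counts are reads of FTH1 was not tested. The overlap is taken from GENCODE version 44, whereas the reads were counted on version 19.

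**Figure D1:**
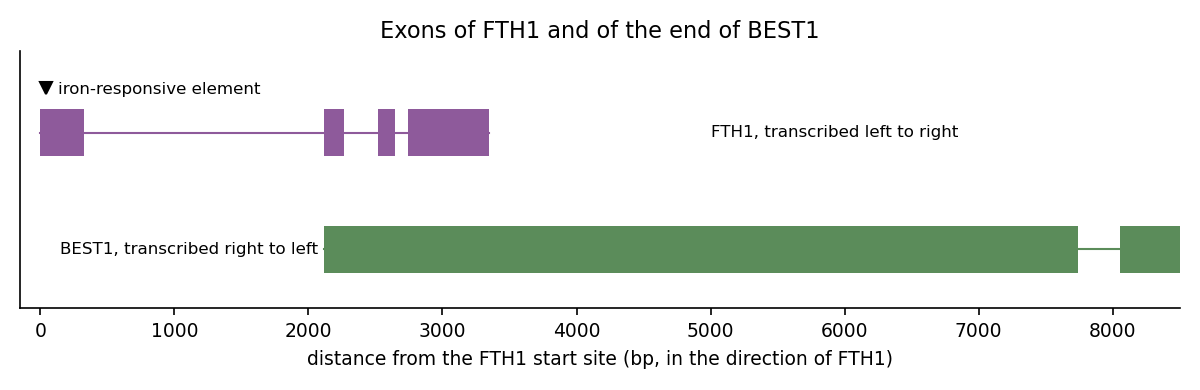
Exons of the main FTH1 transcript (upper row) and of the end of BEST1, all transcripts joined (lower row), by distance in bp from the FTH1 start site in the direction of FTH1 transcription. Exons 2 to 4 of FTH1 lie inside the terminal BEST1 exon block, and exon 1 with the iron-responsive element (triangle) lies outside it.

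BEST1 had 30796, 19500, 11677 and 25528 CPM in SP replicates 1 to 4 and 34649, 22083, 14973 and 23931 CPM in NSP replicates 1 to 4. FTH1 had 3006, 1818, 1497 and 2356 CPM in the SP libraries and 3331, 1976, 1221 and 1923 CPM in the NSP libraries, in the same order. In both groups and for both genes, replicate 1 was the highest and replicate 3 the lowest. FTL (ENSG00000087086.9; chromosome 19, 49468566 to 49470136, plus strand), which has no annotated exon across its exons on the other strand, had 755, 438, 439 and 591 CPM in SP and 1000, 638, 397 and 625 CPM in NSP cells. Its NSP libraries had the same highest and lowest replicates. The SP and NSP libraries overlapped for all 3 genes. The highest of the 8 libraries exceeded the lowest 2.97-fold for BEST1, 2.73-fold for FTH1 and 2.52-fold for FTL.

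The means were 2169 ± 661 CPM in SP and 2113 ± 882 CPM in NSP cells for FTH1 (SD, n = 4 each), 21875 ± 8217 and 23909 ± 8135 CPM for BEST1, and 556 ± 151 and 665 ± 249 CPM for FTL. The log2 fold change, SP over NSP, was 0.04 for FTH1 (standard error 0.26, 95% interval -0.52 to 0.60), -0.13 for BEST1 (standard error 0.28, -0.73 to 0.47) and -0.26 for FTL (standard error 0.24, -0.77 to 0.25). The adjusted p-values were 0.965, 0.875 and 0.653 (quasi-likelihood test of edgeR, Benjamini-Hochberg over all 9309 tested genes). None of the 3 differences exceeded the spread between replicates. The intervals allow a fold between 0.697 and 1.51 for FTH1, and between 0.586 and 1.19 for FTL. As these are sorted bulk samples, fewer cells with a transcript and less of it per cell cannot be told apart.

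**Figure D2:**
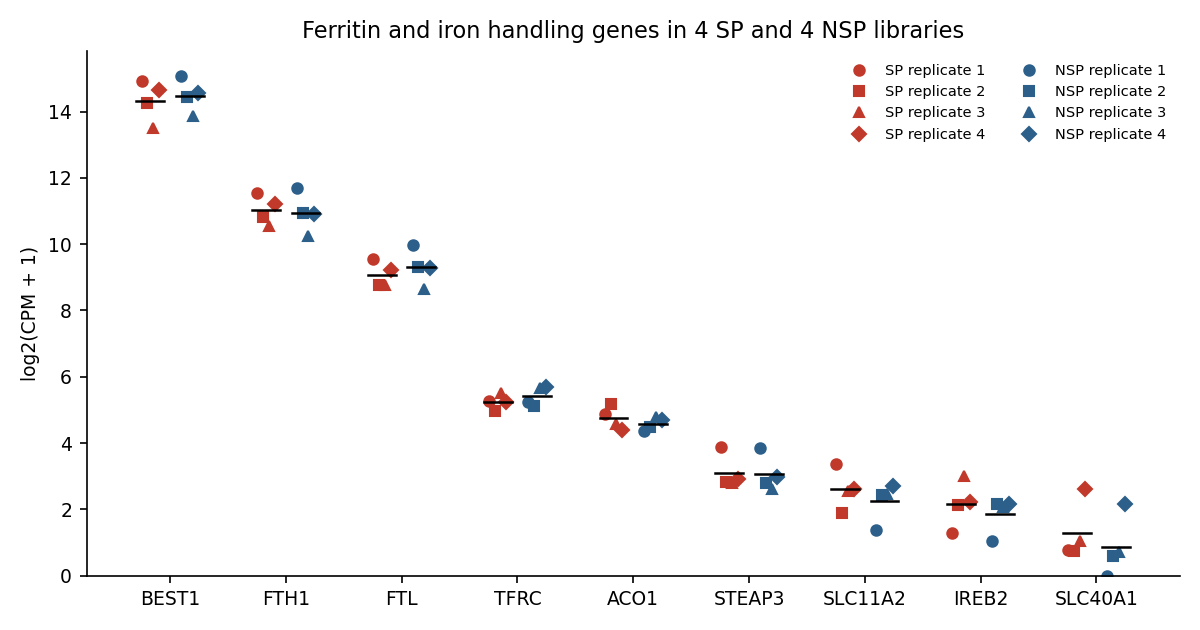
Level of the 9 matched genes in each library as log2(CPM + 1), with SP libraries in red, NSP libraries in blue, a marker shape for each replicate number and a black bar at the mean of the log2 values. For each gene the SP and NSP libraries overlap, and replicates 1 and 3 mark the ends of the range for BEST1 and FTH1 in both groups.

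Because both ferritin subunits followed the replicate number, they were also compared as a ratio within each library, a comparison chosen after the values were seen. FTL counts were 0.251, 0.241, 0.293 and 0.251 of the FTH1 counts in SP replicates 1 to 4 and 0.300, 0.323, 0.325 and 0.325 in NSP replicates 1 to 4. Every SP library lay below every NSP library, by 0.30 on the log2 scale on average (mean difference -0.30, SD 0.13 in SP and 0.056 in NSP, n = 4 each). The exact two-sided permutation test gave p = 0.0286, the smallest that 4 libraries against 4 allow, and 0.0571 after adjustment over the 4 ratios compared. In the annotation, FTH1 shares exon sequence with BEST1, and which of its counts come from there is not shown by the table. Relative to the counts of FTH1 and BEST1 together, FTL counts were highest in SP replicate 3 (811 against 2765 and 21567). The groups then overlapped, with SP replicates 1, 2 and 4 still below every NSP library. BEST1 counts were 10.2, 10.7, 7.80 and 10.8 times the FTH1 counts in SP and 10.4, 11.2, 12.3 and 12.4 times in NSP libraries. These groups overlapped (mean log2 difference -0.23, exact permutation p = 0.0857, adjusted 0.114), and SP replicate 3 was the lowest library.

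**Figure D3:**
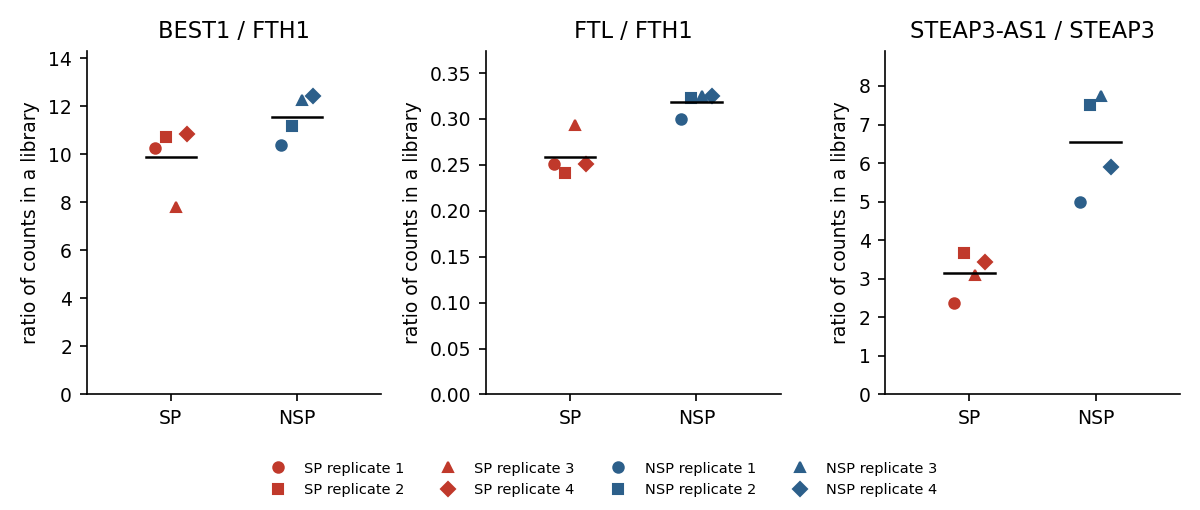
Ratio of the counts of 2 genes within a library, for BEST1 over FTH1, FTL over FTH1 and STEAP3-AS1 over STEAP3, on linear axes from 0, with a marker shape for each replicate number and a black bar at the group mean. The SP libraries lie below all NSP libraries for FTL over FTH1 (0.241 to 0.293 against 0.300 to 0.325) and for STEAP3-AS1 over STEAP3 (2.37 to 3.67 against 5.0 to 7.75), and the groups overlap for BEST1 over FTH1.

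Both ferritin genes have processed pseudogenes, copies of the mRNA elsewhere in the genome, and 50-bp reads from a copy and its parent can be the same. The table held 25 FTH1 pseudogenes with 49 counts in all, 0.176% of the FTH1 counts, led by FTH1P16 with 14 and FTH1P23 with 8, ahead of FTH1P1, FTH1P2, FTH1P4, FTH1P11 and FTH1P20 with 3 each. The 16 FTL pseudogenes held 1428 counts, 17.8% of the FTL counts, and FTLP3 (chromosome 20, 4004564 to 4005091, plus strand) held 1328 of them, ahead of FTLP2 with 80 and FTLP14 with 14. FTLP3 was identical to the FTL mRNA at 97.7% of 528 aligned bases, and 18.5% of the 50-bp windows of the FTL mRNA occurred in it without a mismatch. FTLP3 counts stayed at 14.9% to 18.7% of the FTL counts in SP and 15.9% to 17% in NSP libraries, with groups that overlapped (exact permutation p = 0.6). It was at -0.29 on the log2 scale (SE 0.27, adjusted p = 0.662, edgeR), near the value of FTL. The values of FTL and FTLP3 are uncertain to the extent that the counting, whose treatment of reads with several positions is not given in the sources used here, divided such reads.

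The tested genes most like BEST1 across the 8 libraries were then listed by the root mean square difference of their centred log2(CPM + 1). The closest was the lncRNA ENSG00000248223 (chromosome 5, 17354019 to 17355008, plus strand), at 0.129, where the median over all tested genes was 0.578. WDR37 followed at 0.133 and the lncRNA ENSG00000270017 at 0.142. FTH1 was rank 16 at 0.195 and FTL rank 34 at 0.221. ENSG00000248223 lies across 592 bp of the FTH1 pseudogene FTH1P10 on the other strand. It had 740 counts where FTH1P10 had 0, with 73.5, 40.9, 29.2 and 69.9 CPM in SP and 89.9, 54.8, 42.7 and 56.0 CPM in NSP replicates 1 to 4. Of the 50-bp windows of the FTH1 mRNA, 21.3% occurred in FTH1P10 without a mismatch. This lncRNA did not pass the test (log2 fold change -0.21, standard error 0.28, adjusted p = 0.782, edgeR). It was picked for its likeness to BEST1 in these same libraries, so a value near that of BEST1 follows from the choice. Of 41 annotated ferritin pseudogenes, 3 had an exon of another gene across them on the other strand, and the remaining such genes in the table had at most 12 counts.

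The uptake genes were counted far less. TFRC (chromosome 3, 195739382 to 195809024, minus strand) had 37.5, 30.2, 44.9 and 36.8 CPM in SP replicates 1 to 4 and 36.7, 33.6, 49.1 and 50.5 CPM in NSP replicates 1 to 4. The groups overlapped, and the log2 fold change was -0.17 (standard error 0.20, 95% interval -0.60 to 0.26, adjusted p = 0.739, edgeR). Of its 17376 bp of exons, 191 bp lie across a lncRNA that is not analysed here. SLC11A2, the endosomal iron transporter, had 13, 4, 9 and 7 counts in SP and 3, 9, 7 and 8 counts in NSP replicates 1 to 4, and was too low for the test. Its mean was 5.52 ± 2.79 CPM in SP against 4.01 ± 1.69 CPM in NSP (SD, n = 4 each).

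STEAP3, the ferrireductase of the endosome (chromosome 2, 119981407 to 120023228, plus strand), had 13.7, 6.03, 5.96 and 6.62 CPM in SP and 13.3, 5.93, 5.10 and 6.91 CPM in NSP replicates 1 to 4. Replicate 1 was the highest in both groups, and the log2 fold change was 0.01 (standard error 0.39, 95% interval -0.82 to 0.85, adjusted p = 0.995, edgeR). STEAP3-AS1, a lncRNA whose exons cross 500 bp of STEAP3, all of exon 3 of the main transcript, had 32.4, 22.1, 18.4 and 22.8 CPM in SP and 66.5, 44.4, 39.5 and 40.8 CPM in NSP replicates 1 to 4. All SP libraries were below all NSP libraries.

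STEAP3-AS1 was lower in SP cells with a log2 fold change of -1.01 (standard error 0.23, 95% interval -1.50 to -0.52, adjusted p = 0.0235, edgeR), on 45, 33, 34 and 31 counts in SP and 125, 90, 62 and 59 counts in NSP replicates 1 to 4. It lost the call when any of SP replicates 2, 3 or 4 or NSP replicates 1 or 2 was left out, with log2 fold changes between -0.81 and -1.05 in these fits. With replicate number as a block it was -0.998 (adjusted p = 2.32e-05, edgeR), in a fit that called 12.9% of all tested genes. STEAP3-AS1 had 4.65 times the counts of STEAP3, and 6.37 times per kb of exon. The ratio was 2.37, 3.67, 3.09 and 3.44 in SP replicates 1 to 4 and 5.0, 7.50, 7.75 and 5.90 in NSP replicates 1 to 4, with no overlap (exact permutation p = 0.0286, adjusted 0.0571 over the 4 ratios). Whether the counts of STEAP3-AS1 are reads of STEAP3 was not tested. With both genes summed as 1 row, the value was -0.81 (SE 0.24, adjusted p = 0.0782, edgeR), which did not pass.

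The exporter and the regulators gave no call either. SLC40A1, the only known iron exporter, had 1, 1, 2 and 7 counts in SP replicates 1 to 4 and 0, 1, 1 and 5 counts in NSP replicates 1 to 4, too few to test, and replicate 4 was the highest in both groups. IREB2, iron regulatory protein 2, had 2, 5, 13 and 5 counts in SP and 2, 7, 5 and 5 counts in NSP libraries and was not tested. With so few counts the libraries of both groups overlapped for both genes. ACO1, iron regulatory protein 1, which is the cytosolic aconitase when it holds an iron-sulphur cluster, had 28.1, 34.9, 22.7 and 19.9 CPM in SP and 19.7, 21.2, 26.8 and 24.9 CPM in NSP replicates 1 to 4. The groups overlapped, with a log2 fold change of 0.19 (standard error 0.23, 95% interval -0.29 to 0.68, adjusted p = 0.736, edgeR).

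Of the 9 matched genes, 6 were tested and 0 were called, that is, had a fold change over 1.3 with an adjusted p below 0.05, where 3.66% of all tested genes were called in either direction. At an unadjusted p under 0.05 there were 0 of 6, and DESeq2 called 0. With no filter on low counts all 9 were fitted, and 0 were called. The groups did not overlap for 0 of the 6, against 9.75% of all tested genes. The median log2 fold change of the 6 was -0.058, and it was 0.015 over all tested genes.

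Ordered by CPM per kb of exon over the 8 libraries, BEST1 (2635 ± 880, SD, n = 8) was followed by FTH1 (1068 ± 360) and FTL (701 ± 229). Each of these exceeded the next in 8 of 8 libraries. ACO1 (3.28 ± 0.68) and TFRC (2.30 ± 0.43) came next, again in the same order in 8 of 8 libraries. That order depends on the exon lengths used, 7555 bp for ACO1 and 17376 bp for TFRC. In CPM the means were the other way, 26.4 in SP and 23.1 in NSP for ACO1 against 37.3 and 42.5 for TFRC. Per kb, TFRC exceeded STEAP3 (1.74 ± 0.76) in only 6 of 8 libraries. SLC11A2 (0.48 ± 0.23), SLC40A1 (0.36 ± 0.43) and IREB2 (0.31 ± 0.17) were not ordered beyond their spread, since SLC11A2 exceeded SLC40A1 in 6 of 8 libraries and SLC40A1 exceeded IREB2 in 3. Exon lengths were taken from the newer annotation and include rare transcripts, which lowers the value of genes such as TFRC. The strand setting of the counting is not given for any gene, so the order is one of counts. Whether it is also the order of the mRNA levels was not tested.

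A wider list of iron genes, written down by role, held 67 genes besides the members. All 67 were in the table, 39 were tested, 2 were called higher and 0 lower in SP cells, where 1.63% and 2.03% of all tested genes were called higher and lower. The median log2 fold change of the 39 was 0.086, and 26 of them (66.7%) were above 0, where 51.8% of all tested genes were. At an unadjusted p under 0.05 there were 3 (7.69%), against 16.4% of all tested genes.

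Among genes of uptake and reduction, 3 of 11 were tested and 1 was called. SLC39A8 (ZIP8), a metal importer that carries zinc, manganese and iron, had 74.2, 86.5, 62.3 and 130 CPM in SP and 26.6, 27.7, 26.1 and 71.2 CPM in NSP replicates 1 to 4. NSP replicate 4 overlapped the SP libraries and the other NSP libraries lay below them. The log2 fold change was 1.23 (standard error 0.31, 95% interval 0.58 to 1.89, adjusted p = 0.0369, edgeR), with an exact permutation p of 0.0571. It was not called without SP replicates 2 or 4 or without NSP replicates 1, 2 or 3, at log2 fold changes of 0.98 to 1.24, and it was 1.7 without NSP replicate 4. With replicate number as a block it was 1.28 (adjusted p = 3.21e-10, edgeR), in a fit that called 12.9% of all tested genes. SLC39A8 has no opposite-strand exon across it in the annotation. The strand setting, which is not given, applies to its counts as well, and its effect on them was not tested. CYBRD1, a plasma membrane ferrireductase, had a log2 fold change of 0.31 (adjusted p = 0.635).

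Among regulators, 4 of 7 were tested and HIF1A, the oxygen-regulated transcription factor whose hydroxylases need iron, was called. It had 228, 214, 225 and 235 CPM in SP and 82.5, 122, 110 and 136 CPM in NSP replicates 1 to 4, without overlap. The log2 fold change was 1.0 (standard error 0.16, 95% interval 0.66 to 1.34, adjusted p = 0.00332, edgeR). HIF1A-AS1, a lncRNA whose exons cross 133 bp of HIF1A exons on the other strand, was also higher in SP cells, at 1076 ± 83.3 CPM in SP against 634 ± 84.0 CPM (SD, n = 4 each). It changed by 0.76 on the log2 scale (adjusted p = 0.00949, edgeR) and did not overlap between the groups. Its 10921 counts were 5.10 times those of HIF1A, and 25.3 times per kb of exon. Whether counts of HIF1A and HIF1A-AS1 are reads of the other gene was not tested. HIF1A-AS3, which crosses 299 bp of HIF1A, had 43 counts in all and was not tested. HFE, which binds the transferrin receptor, had a log2 fold change of 0.53 (adjusted p = 0.416).

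Of the exporters, 2 of 6 were tested. CP, ceruloplasmin, which oxidizes iron for release to transferrin, had 142, 158, 138 and 158 CPM in SP and 168, 197, 270 and 206 CPM in NSP replicates 1 to 4. All SP libraries were below all NSP libraries, but the log2 fold change of -0.50 (standard error 0.16, adjusted p = 0.112, edgeR) did not pass. With the replicate block it did, at -0.48 (adjusted p = 0.00758), in a fit that called 12.9% of all tested genes. CP exons share 1420 bp with HPS3 on the other strand, which had 170 counts. HEPHL1, a related ferroxidase, was at -0.21 (adjusted p = 0.844).

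The iron chaperones PCBP1 and PCBP2, which deliver iron to ferritin, had log2 fold changes of -0.04 (95% interval -0.36 to 0.28) and 0.04 (95% interval -0.26 to 0.35). Of PCBP1 exon sequence, 73.2% lies across PCBP1-AS1, which had 34906 counts where PCBP1 had 2835, 12.3 times as many but 0.632 times per kb of exon. Of PCBP2 exon sequence, 18.8% lies across MAP3K12, which had 2.71 times the counts of PCBP2 and 2.69 times per kb of exon. Of 14 genes of haem synthesis and breakdown, 13 were tested and 0 were called by edgeR, with 0 at an unadjusted p under 0.05, and DESeq2 called SLC39A8 and HIF1A alone among the 39 genes. Haem oxygenase HMOX1, which frees iron from haem, had 83.6, 46.2, 22.7 and 36.1 CPM in SP and 48.4, 37.5, 18.5 and 24.9 CPM in NSP replicates 1 to 4, with a log2 fold change of 0.51 (adjusted p = 0.505, edgeR). SP was above NSP at each of the 4 replicate numbers, which the labels do not call pairs. With the replicate block the adjusted p was 0.053 (edgeR), which did not pass. The haem transporter SLC48A1 was at -0.33 (adjusted p = 0.578). Of 26 genes of mitochondrial iron and iron-sulphur clusters, 15 were tested and 0 were called, with log2 fold changes from -0.34 to 0.46 and 0 at an unadjusted p under 0.05. CIAO1 (0.32, adjusted p = 0.532) and CIAO3 (0.29, adjusted p = 0.55), of the cytosolic iron-sulphur assembly machinery, had the smallest p-values of these. CIAO3 exons share 1744 bp with HAGHL on the other strand, which had 3.22 times the counts of CIAO3 and 4.86 times per kb of exon.

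**Figure D4:**
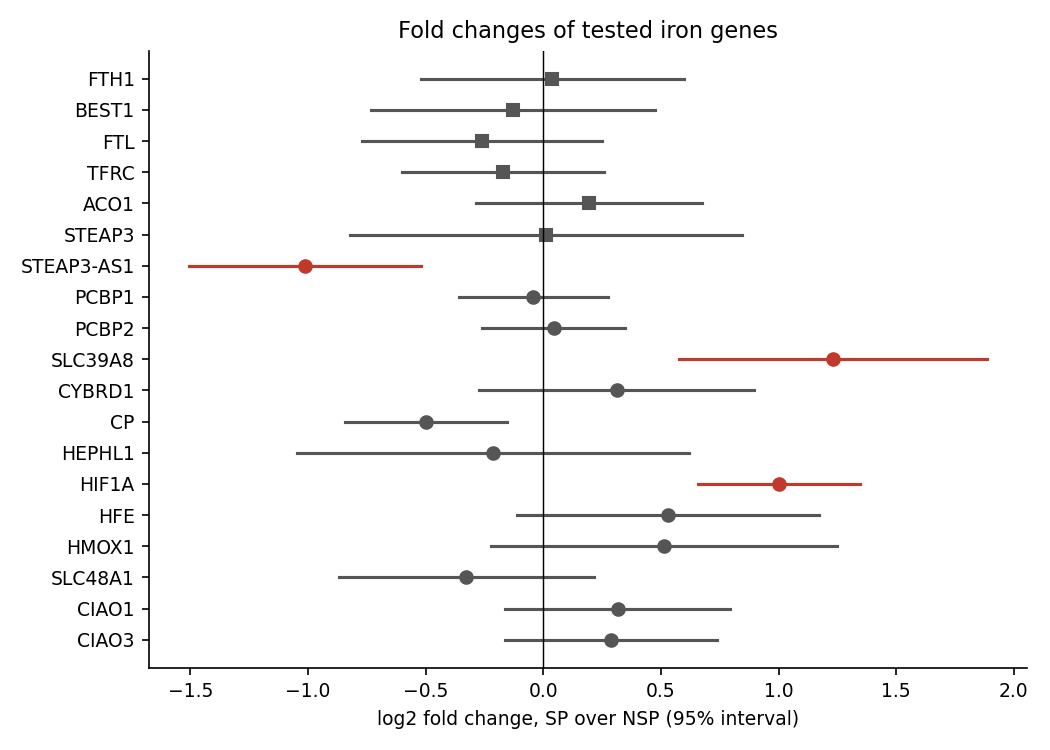
Log2 fold change, SP over NSP, with its 95% interval from edgeR, for the 6 tested members (squares) and for STEAP3-AS1 and the named genes of the wider list (circles), with called genes in red. STEAP3-AS1, SLC39A8 and HIF1A are called, and the intervals of the 6 members all include 0.

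**Figure D5:**
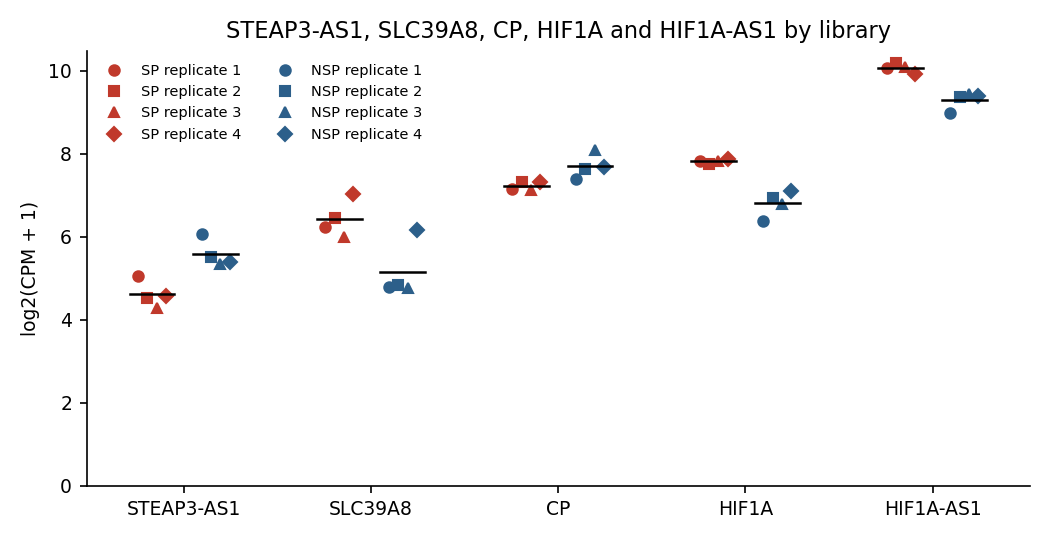
Level of STEAP3-AS1, SLC39A8, CP, HIF1A and HIF1A-AS1 in each library as log2(CPM + 1), with a marker shape for each replicate number and a black bar at the mean of the log2 values. The SP and NSP libraries are separate for all except SLC39A8, where NSP replicate 4 (71.2 CPM) reaches into the SP range.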

How the data were processed

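RNA-seq of 4 SP and 4 NSP libraries of J82 cells was used. The deposited values are raw counts per gene, without normalization: the authors mapped 50-bp single-end reads with STAR (hg19) and counted them on gencode version 19 genes with featureCounts of Subread. Versions, the strand setting and the treatment of reads with several positions are not given in the sources used here. The strand setting bears on every gene, with or without an opposite-strand gene, and its effect was not tested. Libraries were assigned to groups by column name.

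Symbols, positions, exon lengths and exon overlaps came from GENCODE version 44 on GRCh37, the build hg19 corresponds to, joined by unversioned identifier (55538 genes, 96.1%). The test was the quasi-likelihood test of edgeR 4.0.16 (R 4.3.3) with TMM and no covariate, after filterByExpr (minimum count 10, total 15). A call needed a fold change over 1.3 and an adjusted p below 0.05, the cutoff of the study. Single values were compared by exact two-sided permutation tests over libraries (scipy 1.17.1), on log2(CPM + 1) for genes and log2 for ratios. Iron-responsive elements were searched in the reference exons.

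The members and lists were chosen with earlier results of these data known. Besides members, the text names their opposite-strand genes, the 3 most counted pseudogenes of each ferritin (with ties), the called genes and the 2 smallest p-values of each role in the wider list, and the 3 genes most like BEST1. The ratios and the genes across pseudogenes were chosen after their values were seen. Pairing by replicate number was checked by the correlation of deviations from the group means, which was 0.38, 0.203, 0.322 and 0.321 for replicates 1 to 4, so the replicate block was fitted as an alternative. The labels do not say whether equal numbers belong together, and correlations between unequal numbers were not computed. Other alternatives were DESeq2 1.42.0, DESeq2's size factors, other filters, leaving out each library, and summing members with their opposite-strand genes. Replicates differed by more than sampling noise (chi-square per degree of freedom 5.70 to 13.2). The totals of 1431823 to 2073526 per library are counts assigned to genes, far below the raw reads per sample that the paper states. They leave few counts for lowly counted genes. Why most reads are not among them was not tested.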

Additional observations from a re-analysis of the deposited data

Results flagged for a closer look

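In 7 of 62 groups of 4 libraries with at least 40 counts for the gene, a single library was distant from the remaining ones. By chance about 1 in 20 groups would be, here 3.1. The gap to the nearest library, as a share of the group's range in CPM, was 0.888 for IREB2 in NSP cells (replicate 1), 0.913 for STEAP3 in SP cells (replicate 1), 0.918 for PCBP1 in SP cells (replicate 1), 0.917 for PCBP1-AS1 in SP cells (replicate 3), 0.837 for HIF1A-AS1 in NSP cells (replicate 1), 0.842 for HAGHL, which lies across CIAO3, in SP cells (replicate 4) and 0.967 for SLC39A8 in NSP cells (replicate 4). Replicate 1 was the far library in 4 of them.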

How the results depend on the processing

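The count of members called was 0 in each direction under every alternative. For the 2 higher genes of the wider list, HIF1A was called throughout and the count was 1 to 2 with single libraries left out. The replicate block added 1 lower gene, CP, to that list. It also called the marker VIM lower (-0.75, adjusted p = 3.39e-06, edgeR) and left the calls of the other named genes as they were. Over all genes it called 548 higher and 652 lower in place of 152 and 189, and omitting the filter on low counts gave 303 and 381. With single libraries left out, 69 to 164 genes were higher and 89 to 181 lower.

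The sign of small fold changes was not stable, and none of the following values was called. STEAP3 was at -0.0062 without a filter. With single libraries left out the log2 fold change ranged from -0.16 to 0.34 for FTH1, -0.34 to 0.098 for BEST1, -0.35 to 0.15 for STEAP3, -0.010 to 0.096 for PCBP2, -0.13 to 0.028 for PCBP1 and -0.47 to 0.11 for HEPHL1. The sum of FTH1 and BEST1 was at -0.11, and that of STEAP3 and STEAP3-AS1 at -0.81. Most counts of these sums are of the opposite-strand gene (296022 against 27808, and 479 against 103). They are therefore not values of the member alone. FTL ranged from -0.45 to -0.0016 (without NSP replicate 1), TFRC from -0.28 to -0.083 and ACO1 from 0.031 to 0.30, none reversing. Per kb of exon, 71.1% of the counts of FTH1 and BEST1 fell on BEST1 in place of 91.4%, by construction, since BEST1 exons are longer. The cause of the other changes was not tested. SLC40A1, IREB2, SLC11A2 and STEAP3 had 18 to 103 counts in all, too few for narrow intervals, and why they are few was not tested. Intervals from counts cover the spread between these libraries only.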
